A study of Mus musculus with 146 samples.

Results

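The 9 genes described here belong to the antioxidant programme of NRF2 in bone marrow-derived macrophages: the regulators Nfe2l2 and Keap1 and the 7 target genes Nqo1, Srxn1, Gclm, Gclc, Txnrd1, Slc7a11 and Prdx1. They were taken from a list of symbols, and all 9 of 9 were found by Ensembl identifier among the 22721 genes of the raw count table and among the 10893 genes of the table of variance-stabilised values (VST, a log2-like scale). The series holds 146 libraries, 1 per mouse, from outbred Crl:CFW(SW)-US_P08 mice of 16 weeks, with 60 libraries labelled male and 86 labelled female. Marrow cells had grown for 5 days in medium with 25% L929-conditioned medium, the usual source of macrophage growth factor, and no group received a treatment. Libraries were spread over 7 plates, and the mice carried 28 collection-date labels. The series title names a cholesterol network and wound healing, so these genes are followed here across untreated macrophages of genetically diverse mice, not across a perturbation.

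NRF2, the protein of Nfe2l2, is a transcription factor that KEAP1 binds and marks for degradation in unstressed cells. When electrophiles or oxidants modify KEAP1, NRF2 escapes degradation, enters the nucleus with small MAF partners and binds antioxidant response elements near its target genes. The control is therefore mainly at the level of the protein, which RNA sequencing does not read. The targets make and use glutathione (Gclm, Gclc and Slc7a11), run the thioredoxin and peroxiredoxin cycle (Txnrd1, Prdx1 and Srxn1) or reduce quinones (Nqo1). In macrophages this programme limits oxidant damage and is known to restrain inflammatory gene expression.

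The core of the antioxidant response element, the letters TGAC and GC with any 3 bases between them, was searched on both strands in the 250 bases before the annotated start, using RefSeq promoters of GRCm38.p6. Windows were at hand for 8 of the 9 genes, all but Gclc, with 10 windows in all because Txnrd1 has several starts. A match was found in 4 of these 10 windows, in 4 genes, against 10.2% of all 32851 promoter windows. The matches are shown with the core in capitals as it reads on the strand of the gene. Matches to the opposite strand thus show GC first and GTCA last. Whether the matches bear on the levels below was not tested.
Nfe2l2, chr2:75704883-75704913, minus strand: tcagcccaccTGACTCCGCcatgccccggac
Gclm, chr3:122245411-122245443, plus strand: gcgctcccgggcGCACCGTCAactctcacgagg
Prdx1, chr4:116685454-116685486, plus strand: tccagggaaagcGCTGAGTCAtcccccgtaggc
Txnrd1, chr10:82859102-82859134, plus strand: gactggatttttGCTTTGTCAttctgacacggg
The core begins 134 bases before the start in Gclm, 133 in Prdx1 and 240 in Nfe2l2, counted at the farther end of the match. In Txnrd1 it begins 92 bases before a start inside the gene. The other windows of Txnrd1, among them the one just before the gene's first annotated base, did not hold these letters. Neither did the windows of Keap1, Nqo1, Srxn1 and Slc7a11, which says nothing of more distant sequence. A match of letters is a description and not a measured binding site.

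Total counts per library were 14.5 to 120.9 M with a median of 43.8 M, so even the lowest of these genes was well covered, with at least 248 counts for Nqo1 in every library. Macrophage markers were found in all libraries, with 9571 CPM (counts scaled to a common library total) for Lyz2 and 1712 CPM for Csf1r at the median. The lowest median among them was that of Mertk, 49.5 CPM. Of the neutrophil markers, Ly6g was at a median of 0.0223 CPM, but S100a9 was at 48.5 CPM, S100a8 at 38.8 CPM and Ngp at 14.0 CPM. Markers of granulocyte precursors such as Mpo spread widely, and the 11 neutrophil and precursor markers summed to 76.4 to 1734 CPM. In bulk RNA, fewer cells of a type and less RNA per cell cannot be told apart. By Y-linked counts, 6 libraries went against their labelled sex: males 57 and 59 and females 5, 82, 85 and 86, of which 5 sat on plate 8 and 1 on plate 10. All were kept under their labels, and results on sex and on pairs were recomputed without them. No 2 libraries were as alike as counting noise would make them: the lowest chi-square per degree of freedom over 10585 library pairs was 15.1.

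Transcripts of both regulators were present in every library, with Nfe2l2 far above Keap1. Nfe2l2 (chromosome 2, 75675513 to 75704641, GRCm38) had 212 to 392 CPM with a median of 281 CPM over 146 libraries. Keap1 (chromosome 9, 21229730 to 21239361), the adaptor that presents NRF2 to a CUL3 ubiquitin ligase, had 54.2 to 85.7 CPM with a median of 67.8 CPM. Per length of annotated exons, the median of Nfe2l2 was 73.9 RPKM and that of Keap1 14.5 RPKM, and their ratio lay between 3.53 and 7.98 in every library with a median of 5.08. The ranges of the regulators did not overlap.

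Among the targets, Prdx1 was the most abundant and Slc7a11 the least, per length. Prdx1 (chromosome 4, 116685544 to 116700822), a peroxiredoxin that removes hydrogen peroxide, had 439 to 1145 CPM and a median of 198 RPKM. Srxn1 (chromosome 2, 152105516 to 152111376), the sulfiredoxin that restores over-oxidised peroxiredoxins, had 176 to 378 CPM and 86.2 RPKM. Txnrd1 (chromosome 10, 82833951 to 82897712), the cytosolic thioredoxin reductase, had 389 to 644 CPM and 71.5 RPKM. These 3 enzymes of the thioredoxin cycle thus differed by less than 3-fold per length at the median. Gclc (chromosome 9, 77754535 to 77794485), the catalytic subunit of glutamate-cysteine ligase and so of the first step of glutathione synthesis, had 158 to 362 CPM and 66.97 RPKM. Gclm (chromosome 3, 122245557 to 122270732), its modifier subunit, had 164 to 609 CPM and 52.01 RPKM. The subunits stood in a Gclm to Gclc ratio of 0.473 to 1.28 per length with a median of 0.806, and Gclc was the higher in 127 of 146 libraries. Nqo1 (chromosome 8, 107388225 to 107403206), a quinone reductase and the classical reporter of NRF2 activity, had only 8.38 to 33.5 CPM and 10.4 RPKM. Slc7a11 (chromosome 3, 49892526 to 50443614), the xCT subunit that imports cystine for glutathione, had 29.1 to 273 CPM and 6.17 RPKM, over a long annotated exon sequence of 13922 bases.

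Not all neighbours in this order were distinct. Prdx1 lay above Srxn1 in 146 of 146 libraries, and Gclm lay above Keap1 in 146 of 146. In the middle of the order Nfe2l2 exceeded Txnrd1 in only 92 libraries, Txnrd1 exceeded Gclc in 106 and Srxn1 exceeded Nfe2l2 in 119, so these 4 genes overlapped within their spread. Keap1 exceeded Nqo1 in 133 libraries and Nqo1 exceeded Slc7a11 in 132. RPKM rests here on the joined exons of all annotated transcripts, which macrophages need not all use. Reads of Keap1, Prdx1, Gclm and Slc7a11 could in small part belong elsewhere, since 8.76%, 7.46%, 3.62% and 2.15% of their 50-mers also occur in another annotated gene.

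Spread over mice differed widely between the genes. For Slc7a11 the 90th percentile of libraries was 3.29 times the 10th, a spread wider than that of 96.0% of the VST genes. For Gclm this ratio was 1.96 and for Nqo1 1.75, whereas it was 1.41 for Gclc, 1.41 for Prdx1 and 1.39 for Srxn1, against a median of 1.41 over all VST genes. Txnrd1 at 1.29, Nfe2l2 at 1.31 and Keap1 at 1.23 were among the steadier genes. Of the subunits of glutamate-cysteine ligase, the modifier thus spread widely and the catalytic one about as much as the median gene.

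**Figure D1:**
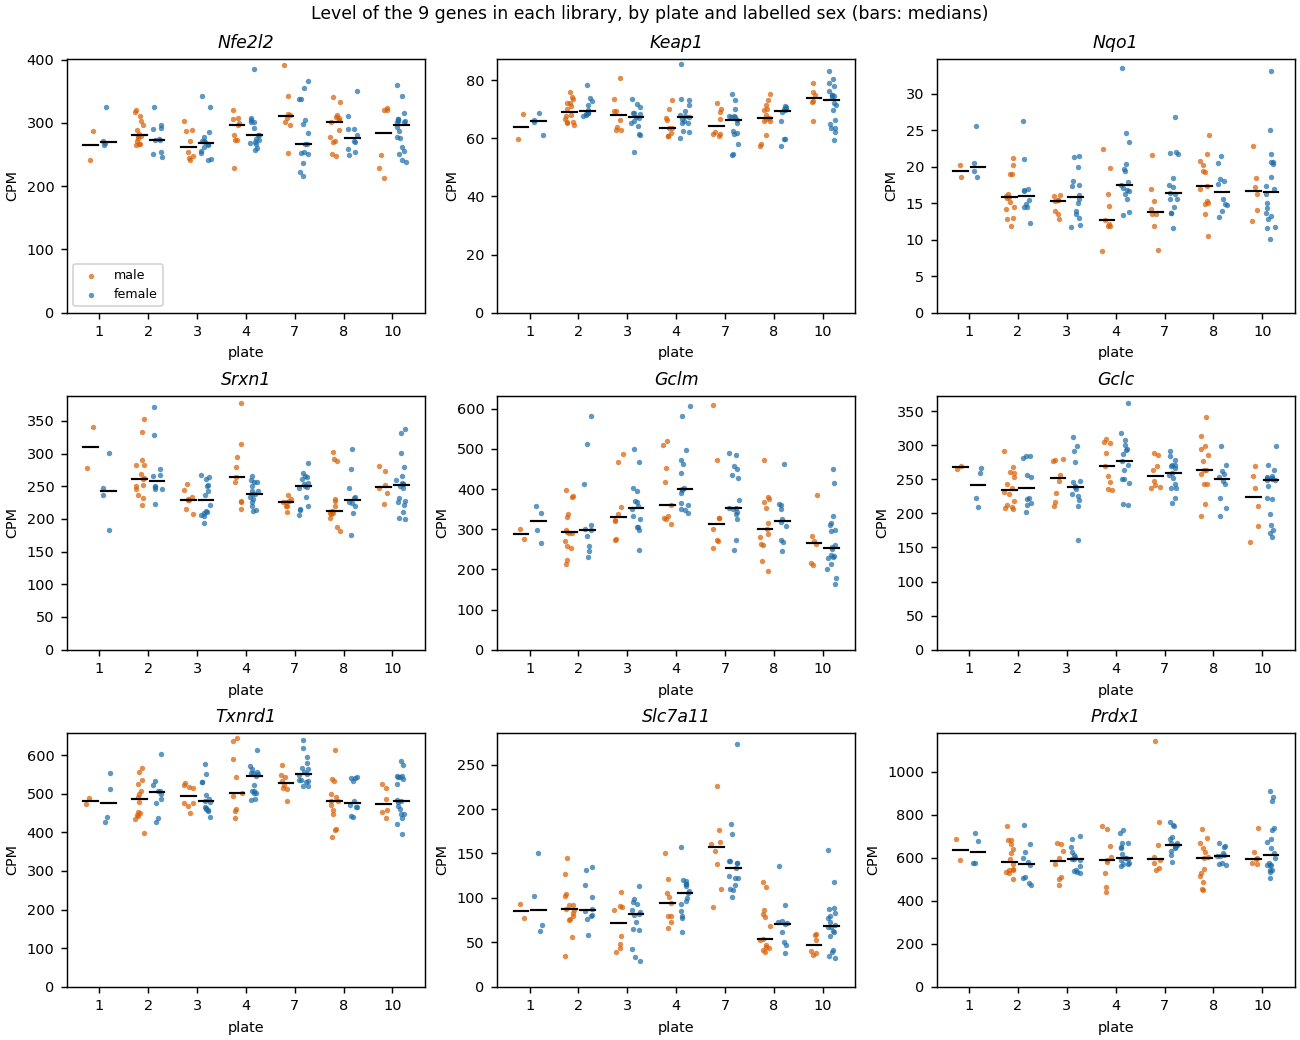
Level of each of the 9 genes in CPM (y axis, from 0) in every library by plate (x axis), with males left of females and bars at the medians. Slc7a11 on plate 7, with 89.97 to 273 CPM, has the highest median, while Keap1 and Txnrd1 stay in narrow bands on all plates.

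Plate accounted for a part of the spread of most of the genes, as it did for most genes of the transcriptome. Slc7a11 had 89.97 to 273 CPM on plate 7 with a median of 139 CPM (23 libraries), against 31.9 to 153.5 CPM on plate 10 with a median of 61.8 CPM (24 libraries). Gclm had 314 to 608 CPM on plate 4 with a median of 399 CPM, against 164 to 451 CPM on plate 10 with a median of 258 CPM (24 libraries each). Both pairs of plates overlapped, and Slc7a11 and Gclm were highest on different plates. By edgeR's quasi-likelihood test over the 6 plate coefficients, with sex as covariate, 7 of the 9 genes passed an adjusted p of 0.05, where 74.8% of all 12060 tested genes did. The adjusted p was 8.25e-13 for Slc7a11, 6.94e-07 for Gclm and 2.74e-05 for Keap1. Nfe2l2 (adjusted p = 0.165) and Nqo1 (adjusted p = 0.276) were the 2 genes that did not pass. Plate held 42.4% of the VST variance of Slc7a11 and 27.5% of that of Gclm, but 5.90% of that of Nfe2l2 and 4.96% of that of Nqo1, beside a median of 15.6% over all VST genes.

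Collection date went with larger differences than plate. The 28 dates held 1 to 14 mice each, 18 of them lay on 1 plate, and dates and plates can be told apart only in part. Slc7a11 had 138 to 273 CPM with a median of 167 CPM in the 10 mice of 14 April 2011, all on plate 7, and 31.9 to 79.6 CPM with a median of 40.7 CPM in the 10 mice of 16 June 2011, all on plate 10. These 20 libraries did not overlap. Among dates with at least 4 mice, Nfe2l2 also had its highest median on 14 April 2011, at 301 to 392 CPM with a median of 338 CPM, and was 277 to 342 CPM on 16 June 2011 with a median of 305 CPM, the next highest median. Gclm on 16 June 2011 had the lowest median of those dates, 241 CPM with a range of 164 to 295 CPM. The date on which Slc7a11 and Gclm were low was thus one on which Nfe2l2 was high.

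Tested within plates with edgeR over 27 date coefficients, 8 of the 9 genes passed an adjusted p of 0.05, against 69.2% of all genes. The smallest adjusted p values were 6.62e-09 for Nfe2l2, 7.89e-08 for Gclc and 1.46e-07 for Slc7a11, and Nqo1 was the gene that did not pass (adjusted p = 0.0597). Keap1 passed with an adjusted p of 0.0427 and was not past the threshold under limma voom or with no filter on low counts, and Nqo1 passed without plate 1 (adjusted p = 0.0284). Date labels together held 70.5% of the VST variance of Slc7a11, more than in 99.6% of VST genes, 56.2% for Gclc, 55.8% for Nfe2l2 and 55.1% for Gclm, beside a median of 40.2% over all VST genes. For Nqo1 they held 20.2%, a share lower than in all but 1.79% of VST genes. Shares adjusted for the number of labels were 63.7% for Slc7a11, 1.96% for Nqo1 and 26.5% at the median of all VST genes for date, and 39.9%, 0.856% and 11.9% for plate. Most of the variance of Slc7a11 thus lay between dates, and most of that of Nqo1 between mice of the same date. What else differed between dates, such as medium, handling or litter, was not tested.

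**Figure D2:**
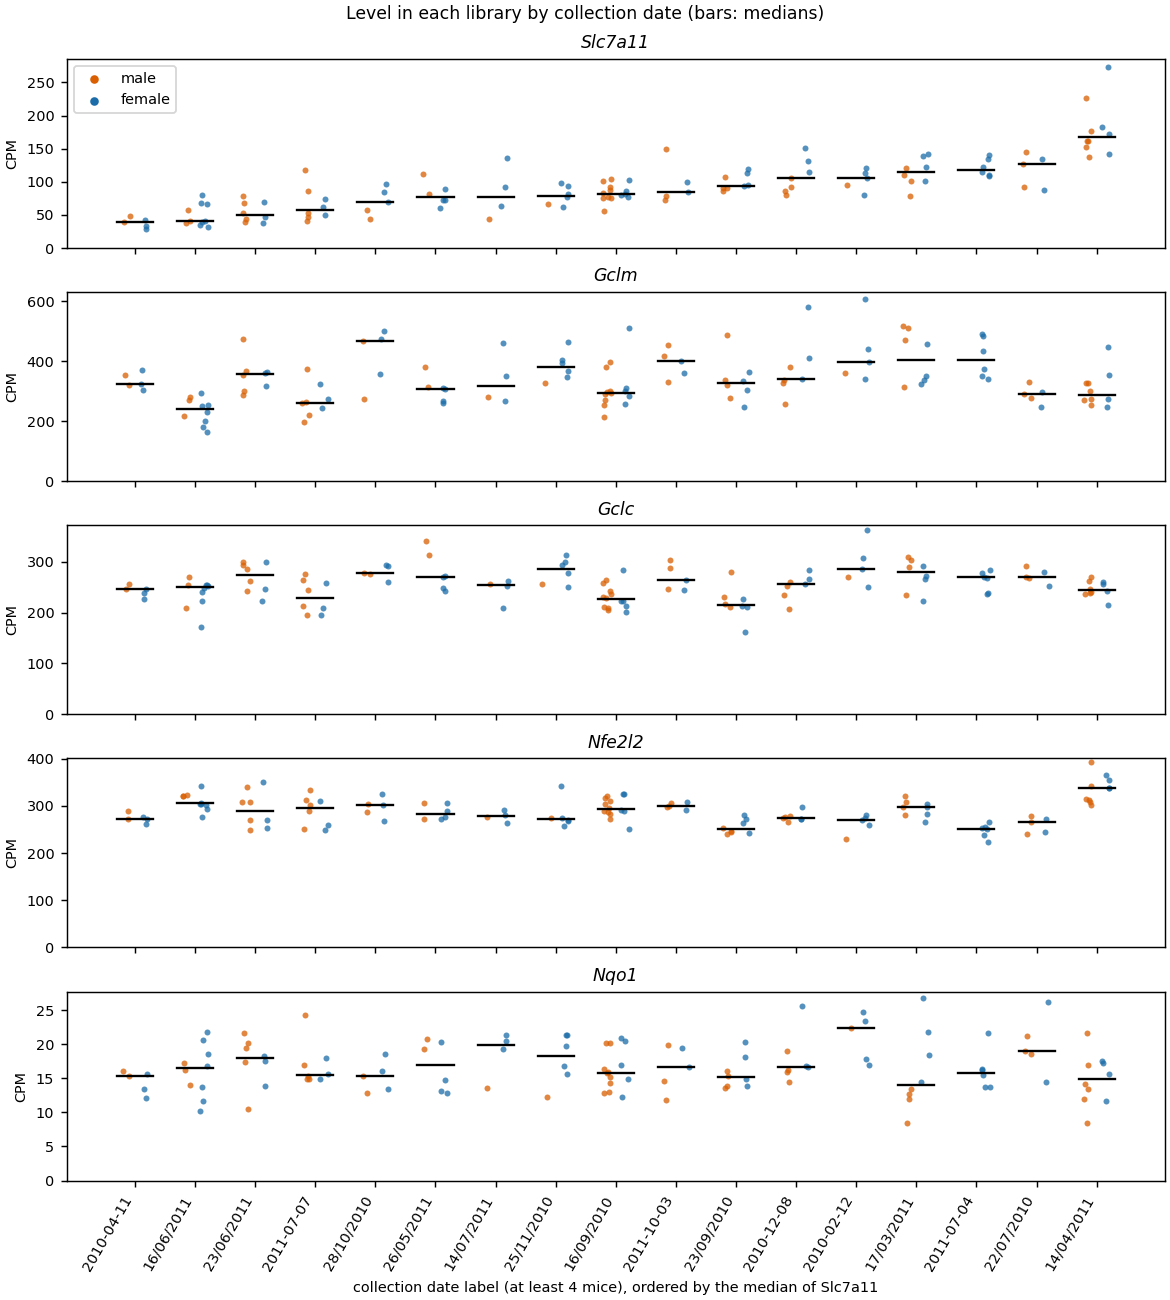
Level of 5 of the genes in CPM (y axes, from 0) in every library of the collection dates with at least 4 mice (x axis, ordered by the median of Slc7a11), males left of females, bars at the medians. Slc7a11 climbs from a median of 39.2 to 167 CPM by construction of the order, Nfe2l2 is high on the last date and on the second, and Nqo1 shows no such order.

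None of the 9 genes passed the test for labelled sex. Nqo1 had 8.38 to 24.3 CPM with a median of 15.4 CPM in males and 10.1 to 33.5 CPM with a median of 16.9 CPM in females. Slc7a11 had 34.1 to 226 CPM with a median of 82.3 CPM in males and 29.1 to 273 CPM with a median of 86.8 CPM in females. Gclm had 196 to 609 CPM with a median of 314 CPM in males and 164 to 608 CPM with a median of 341 CPM in females. The ranges of males and females overlapped for all 9 genes. With plate as covariate, edgeR called 0 of the 9 genes at an adjusted p under 0.05, where 5.02% of the 12060 tested genes passed, 2.17% higher in males and 2.84% higher in females. At an unadjusted p under 0.05 there was 1, Nqo1, with a log2 difference (male minus female) of -0.13 ± 0.06 (SE, p = 0.0267, adjusted p = 0.180), and males had the lower mean in 6 of 7 plates. The other 8 differences were between -0.12 for Slc7a11 and 0.03 for Nfe2l2. limma voom and DESeq2 called 0 as well. Of the interaction of sex with plate, edgeR called 0 of the 9 genes (0.0415% of all genes), with 1 at an unadjusted p under 0.05, Srxn1 (p = 0.0415, adjusted p = 0.996).

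Of 27 other NRF2 targets from a list of textbook target genes, 2 passed the same test for sex, where 5.02% of all genes did, and both were lower in males: G6pdx, the enzyme that opens the pentose phosphate pathway, at -0.08 ± 0.02 (SE, edgeR adjusted p = 0.00775), and Me1, malic enzyme, at -0.25 ± 0.07 (SE, adjusted p = 0.0205). Of Me1, 29.3% of 50-mers occur in another annotated gene, so its counts are uncertain. The median difference over the list was -0.02, beside 0.00 over all genes.

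Over mice, a core of the targets varied together after plate and sex were removed from the VST values. For each gene, every other VST gene was fitted on its level with limma, and a pair was called where both fits gave an adjusted p under 0.05. Of the 36 pairs, 18 were called, 16 with a positive and 2 with a negative correlation, and the median r over the 36 was 0.154. These counts stand beside a high background, since 14.8% (Txnrd1) to 56% (Srxn1) of all 10892 other genes were associated with a given one of the 9. The 5 strongest pairs, each with r over 0.5, were all among 5 target enzymes. Gclm and Prdx1 had r = 0.677 and rho = 0.655 (adjusted p = 3.06e-16), Srxn1 and Txnrd1 had r = 0.662 and rho = 0.619 (adjusted p = 7.93e-15), and Gclm and Txnrd1 had r = 0.62 and rho = 0.641 (adjusted p = 7.8e-13). The subunits Gclm and Gclc had r = 0.607 and rho = 0.644, and Gclc and Txnrd1 had r = 0.603 and rho = 0.616. Each of these 5 correlations was positive in 7 of 7 plates, and each gave p = 1e-05 for r and for rho in 100000 two-sided permutations within plates, the smallest p that these can give. Across all 18 called pairs the permutation p was at most 0.0145 for r and 0.0111 for rho. Each r was also taken without the 2 libraries farthest from the median of the first gene of the pair, in the order of the opening list. It then moved by at most 0.0614 in any of the 36 pairs. Libraries extreme only in the second gene, as Prdx1 always was, stayed in. With collection date removed in place of plate, the same 18 pairs were called. The partners named below for each gene were chosen among genes outside the 9.

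**Figure D3:**
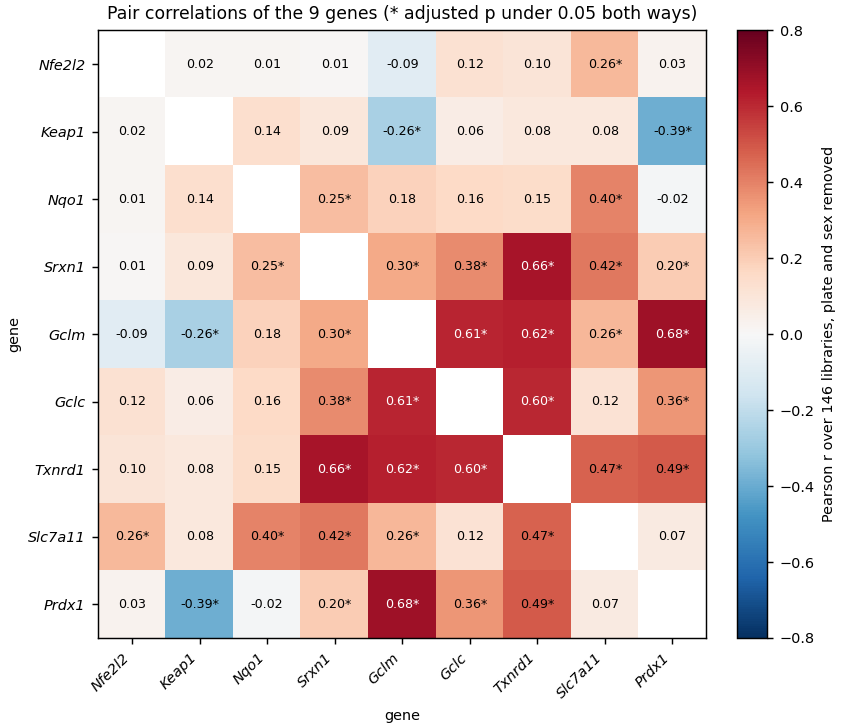
Pearson r of each pair of the 9 genes (rows and columns) over 146 libraries, on VST values with plate and sex removed; red is positive, blue negative, and an asterisk marks an adjusted p under 0.05 in both fits. The 5 targets from Srxn1 to Txnrd1 with Prdx1 hold the 5 values over 0.5, but other pairs among them go down to 0.202 for Srxn1 with Prdx1. Slc7a11, outside these 5, reaches 0.472 with Txnrd1. The rows of Nfe2l2 and Keap1 are pale apart from r = 0.262 for Nfe2l2 with Slc7a11 and r = -0.394 and -0.258 for Keap1 with Prdx1 and Gclm.

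Txnrd1 stood at the centre and the 2 regulators and Nqo1 at the edge. The r of a gene with the mean of the other 8 was 0.773 for Txnrd1, 0.558 for Gclc, 0.537 for Srxn1, 0.535 for Gclm and 0.478 for Slc7a11. It was 0.313 for Prdx1, 0.279 for Nqo1, 0.0986 for Nfe2l2 and -0.0373 for Keap1. These values share the 146 libraries and are a description of the order only.

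**Figure D4:**
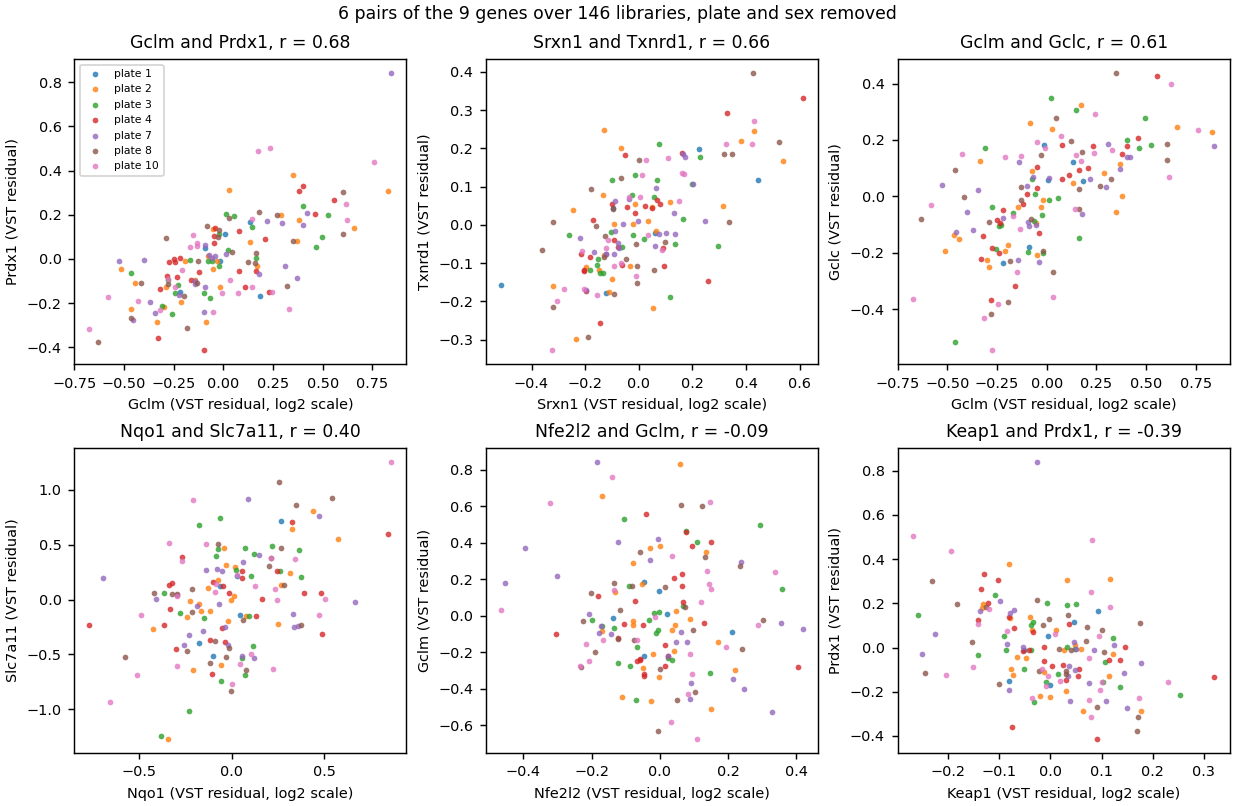
VST residuals (log2 scale, plate and sex removed) of 6 pairs of the genes, 1 point per library, coloured by plate. The 3 upper pairs rise together with r from 0.607 to 0.677, Nqo1 and Slc7a11 rise with r = 0.396, Nfe2l2 and Gclm show no trend (r = -0.088), and Keap1 and Prdx1 run against each other (r = -0.394).

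Of the targets, Slc7a11 alone was called with the transcript of Nfe2l2. With Slc7a11 it had r = 0.262 and rho = 0.25 (adjusted p = 0.0116), and this was the 1 called of its 8 pairs, where 26.1% of all genes were associated with Nfe2l2. The value was positive in 6 of 7 plates. It was 0.146 without plate 7 (adjusted p = 0.285) and 0.223 without plate 8, and the call was lost in both, whereas with date removed in place of plate it was 0.383 and was called. With the other 7 genes r lay between -0.088 for Gclm and 0.119 for Gclc. Of 26 other NRF2 targets in the VST table, 1 was positively and 5 were negatively associated with Nfe2l2, against 13.8% positive and 12.3% negative of all genes. The positive one was Gstm1, a glutathione transferase, at r = 0.262, and the lowest was Cbr3, a carbonyl reductase, at -0.409. Its closest partners were Lyst, which shapes lysosome size, at 0.61, Cnot4, a ubiquitin ligase of the CCR4-NOT complex, at 0.571 and Eya3, a phosphatase, at 0.568, and its lowest were Erf, an ETS repressor, at -0.504 and Dyrk2, a kinase, at -0.484. Among genes of NRF2 control, Sqstm1, whose product p62 sequesters KEAP1 and which is itself an NRF2 target, was associated with Nfe2l2 at r = 0.498 (limma adjusted p = 2.32e-07). Of 19 genes of the integrated stress response, 6 were positive and 0 negative, led by Ddit3, the factor CHOP, at 0.438.

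Keap1 ran against Prdx1 (r = -0.394, rho = -0.39, adjusted p = 2.36e-05) and Gclm (r = -0.258, rho = -0.22, adjusted p = 0.0104), and with no other of the 9 was a pair called. Its level was associated with 50.2% of all genes, so 2 of 8 is below the background. Its closest partners were Ppp1r9b, the scaffold spinophilin, at 0.698, Zc3h4, a zinc finger protein, at 0.682 and Rxrb, a retinoid X receptor, at 0.68, and its lowest were Sec63, of the endoplasmic reticulum translocon, at -0.631 and Opa1, a mitochondrial fusion GTPase, at -0.622. Once 5 principal components of the residuals were added as covariates, both calls were lost, with r = 0.0277 for Gclm and -0.107 for Prdx1, and the number of genes associated with Keap1 was 82 in place of 5463. Of its 5 partners, Zc3h4 alone was still past the threshold then (r = 0.449), whereas Opa1 stood at 0.0311. Of the 26 other NRF2 targets 2 were positive and 6 negative, where 24.6% of all genes were positive and 25.5% negative, and 0 were called with the components.

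Nqo1 was called with Slc7a11 (r = 0.396, rho = 0.326, adjusted p = 3.55e-05) and Srxn1 (r = 0.248, rho = 0.266, adjusted p = 0.0108), and with 0 of the other 6 genes, at a background of 42%. Its closest partner was Ahrr, the repressor of the aryl hydrocarbon receptor and one of its induced targets, at r = 0.70 (limma adjusted p = 3.67e-18). Acpp, an acid phosphatase, had 0.64 and Notch1, a receptor of cell contact, 0.604, and the lowest were Vegfb, a growth factor, at -0.563 and Slc39a8, a zinc importer, at -0.547. Nqo1 is known to be induced through the aryl hydrocarbon receptor as well as through NRF2. Ahr itself stood at 0.552 (limma adjusted p = 1.15e-09). Ugt1a7c, a glucuronosyltransferase, stood at 0.568 (54.3% of its 50-mers occur in another gene, so its counts are uncertain), and Tiparp, a further receptor target, at 0.30. These 3 were chosen after their values were seen. Cyp1a1 and Cyp1b1, looked up with them, are not in the VST table and so have no value here. With 5 principal components added, Ahrr remained at 0.585 and Ahr at 0.463, whereas Tiparp was at -0.019 and no longer called, and neither were Slc7a11 (0.215) and Srxn1 (0.117). Of the 26 other NRF2 targets, 8 were positive and 1 negative with Nqo1, where 19.6% of all genes were positive and 22.5% negative. With the components 2 were positive and 0 negative, when 120 of all 10892 other genes were associated with Nqo1.

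Srxn1 was called with 6 of the other 8 genes, all positively, at the highest background of the 9, 56%. Beside Txnrd1 these were Slc7a11 (r = 0.423, rho = 0.376), Gclc (0.377), Gclm (0.303), Nqo1 and Prdx1 (0.202, adjusted p = 0.0385). Its partners were Abhd4, a lipid hydrolase, at r = 0.657, Mdm2, the ubiquitin ligase of p53, at 0.65 and Akap8l at 0.649, and the lowest were Ccar2, a regulator of deacetylases, at -0.636 and Atad2, a chromatin ATPase, at -0.633. By rho these partners were weaker, at 0.533 for Abhd4, 0.503 for Mdm2, 0.504 for Akap8l, -0.484 for Ccar2 and -0.453 for Atad2. Of NRF2 control genes 6 of 11 were positive and 0 negative, led by Sqstm1 at r = 0.597 (adjusted p = 1.4e-12) and by Bach1, the repressor that competes at the same elements, at 0.393, but with 5 components added 1 was positive and 1 negative. Among the 26 other targets 16 were positive and 3 negative, where 27.4% of all genes were positive and 28.6% negative, led by Esd, an esterase, at 0.642, Ephx1, an epoxide hydrolase, at 0.639 and Blvrb, a biliverdin reductase, at 0.576. Of 11 listed inflammatory genes 8 were in the VST table, and of these 6 were positive and 1 negative, or 4 and 0 with the components. Among the positive ones were Nfkbia, the inhibitor of NF-kB, at 0.539 and the chemokine Cxcl2 at 0.526. All 11 of 11 cell cycle genes were negative.

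The closest partners of Gclm included genes of glutathione and peroxide metabolism. It was called with Prdx1, Txnrd1, Gclc, Srxn1 and Slc7a11 (r = 0.264, rho = 0.213) and negatively with Keap1, 6 of 8 at a background of 35.3%. Its closest partners were Gsta3, a glutathione transferase, at r = 0.755 (limma adjusted p = 1.98e-23), Prdx6, a peroxiredoxin that uses glutathione, at 0.75 and Creg1, a lysosomal glycoprotein, at 0.732. With 5 principal components added, Prdx6 stood at 0.833 and Gsta3 at 0.628. Its lowest were Dok2, an adaptor of kinase signalling, at -0.671 and Usp11, a deubiquitinase, at -0.661. Of the 26 other NRF2 targets 16 were positive and 0 negative, where 17.5% of all genes were positive and 17.7% negative, among them Cat, catalase, at 0.706, Slc48a1, a haem transporter, at 0.676 and Me1, with uncertain counts, at 0.709. Of 11 hypoxia and glycolysis genes 9 were negative and 0 positive, the lowest being Ldha, lactate dehydrogenase, at -0.659 (adjusted p = 8.19e-16).

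Gclc was called with Gclm, Txnrd1, Srxn1 and Prdx1 (r = 0.355, rho = 0.349), 4 of 8 at a background of 37.2%. Outside the 9 its closest partners were Smurf2, a ubiquitin ligase of TGF-beta signalling, at 0.65, Mphosph8, of the HUSH silencing complex, at 0.648 and Plaa, of ubiquitin-dependent turnover, at 0.634, and the lowest Gys1, glycogen synthase, at -0.637 and Klf3, a repressor, at -0.616. Removing date in place of plate took Klf3 to -0.256 and Gys1 to -0.376. Of the other NRF2 targets 13 of 26 were positive and 0 negative, where 19.3% of all genes were positive and 17.9% negative, led by Me1 at 0.504, again with uncertain counts, and Cat at 0.458. Of 19 integrated stress response genes 2 were positive and 9 negative, among them Nupr1 at -0.341 and Trib3 at -0.305, and 0 were called with 5 components added.

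Txnrd1 had the smallest share of associated genes of the 9, 14.8% of all genes, 7.06% positively. It was called with 5 of the other 8 genes: Srxn1, Gclm, Gclc, Prdx1 (r = 0.489, rho = 0.515) and Slc7a11 (r = 0.472, rho = 0.435). Among all genes Srxn1 was closest to it (r = 0.662), and outside the 9 it was Abcc1, the exporter of glutathione conjugates and itself an NRF2 target, at r = 0.644 (limma adjusted p = 1.78e-13), or 0.737 with 5 components added. Cat followed at 0.551 and Jag1, a Notch ligand, at 0.526, and the lowest were Lbh at -0.518 and Ripk3, the kinase of necroptosis, at -0.508. Of the 26 other NRF2 targets 17 were positive and 1 negative, where 7.71% of all genes were negative, among them the pentose phosphate enzymes Pgd at 0.514 and Taldo1 at 0.451. With the components these counts were the same, 17 and 1, but at a higher background. Of all 10892 other genes, 2610 were then associated with Txnrd1, of either sign, in place of 1609.

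Slc7a11 went with genes of the integrated stress response, which amino acid shortage is known to switch on, as well as with NRF2 targets. It was called with 5 of the other 8 genes, Txnrd1, Srxn1, Nqo1, Gclm and Nfe2l2, at a background of 46.8%, and its r with Gclc was 0.117 (adjusted p = 0.277) and with Prdx1 0.0689. Its closest partners were Chd2, a chromatin remodeller, at 0.682, Slc38a2, a transporter of neutral amino acids, at 0.654 and Ankrd11, a chromatin regulator, at 0.646, and the lowest Hip1, of endocytosis, at -0.632 and Tmcc2 at -0.60. Of 19 integrated stress response genes 13 were positive and 0 negative, where 22.7% of all genes were positive and 24.1% negative: Atf4, the factor that drives this response, stood at r = 0.596 (limma adjusted p = 7.9e-12), Trib3 at 0.555, Atf5 at 0.528 and Nupr1 at 0.519. With 5 components added 16 of the 19 were positive and 0 negative. Slc7a11 is known as a target of ATF4 as well as of NRF2. Of the 26 other NRF2 targets 14 were positive and 1 negative, led by Osgin1 at 0.471 and Gstm1 at 0.411, and of NRF2 control genes 8 of 11 were positive, led by Bach1 at 0.513 and Sqstm1 at 0.469. All 11 of 11 cell cycle genes were negative, with Birc5 at -0.536.

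Prdx1 was called with Gclm, Txnrd1, Gclc and Srxn1 and negatively with Keap1, 5 of 8 at a background of 45.5%. Gclm (r = 0.677) was the closest of all genes, and outside the 9 the closest were Cyb5a, cytochrome b5, at 0.67, Rps27l, a ribosomal protein-like p53 target, at 0.662 and Tmsb4x, thymosin beta, at 0.627, and the lowest Itgb7, an integrin subunit, at -0.602 and Nhsl2 at -0.587. Of the 26 other NRF2 targets 16 were positive and 0 negative, where 23.9% of all genes were positive and 21.6% negative, led by Me1 at 0.594, with uncertain counts, Cbr3 at 0.576 and Hmox1, haem oxygenase, at 0.527. Markers of granulocyte precursors ran the other way: 8 of 9 in the VST table were negatively associated with Prdx1, with Elane at -0.532 and Prtn3 at -0.523, and the summed level of all 11 markers had r = -0.477 and rho = -0.448 with Prdx1.

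**Figure D5:**
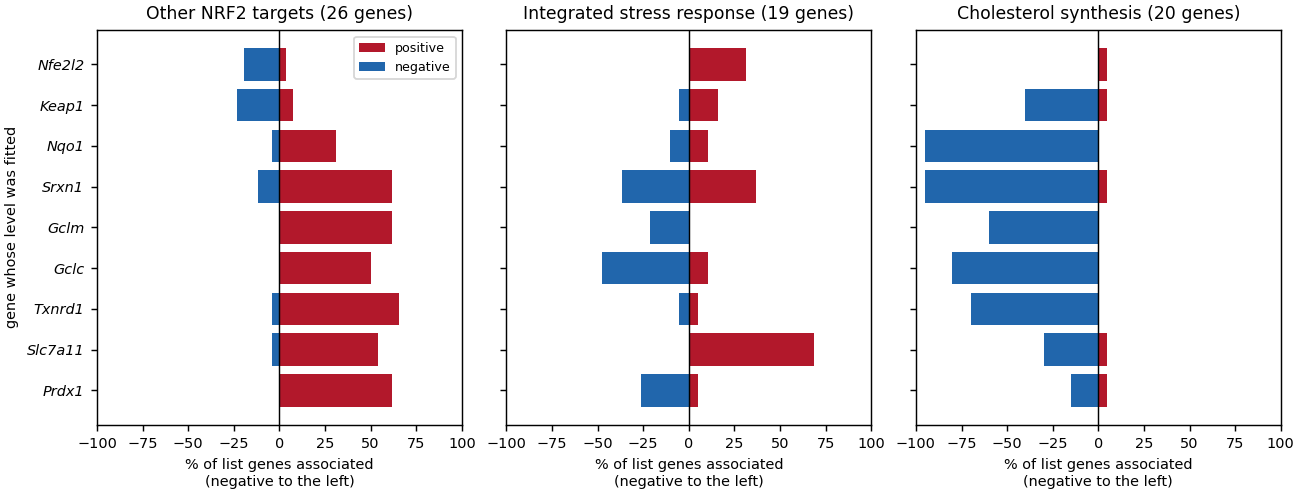
Percentage of the genes of 3 lists that were associated with the level of each of the 9 genes (rows) at a limma adjusted p under 0.05, positive to the right and negative to the left. Other NRF2 targets lie to the right for the target enzymes but not for Nfe2l2 and Keap1, the integrated stress response is most one-sided for Slc7a11 with 13 of 19, and cholesterol synthesis genes lie to the left for Nqo1 and Srxn1 with 19 of 20 each.

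Set side by side, the 6 targets Txnrd1, Gclm, Prdx1, Srxn1, Gclc and Slc7a11 each had 13 to 17 of the 26 other NRF2 targets on the positive side, with a median r over that list of 0.19 to 0.30. For Nfe2l2 that median was -0.07 and for Keap1 -0.01, and over all genes it lay between -0.01 and 0.01 for each of the 9. With 5 components added the positive counts were 22 for Gclm, 21 for Prdx1, 19 for Srxn1, 18 for Gclc, 17 for Txnrd1 and 13 for Slc7a11, but 2 for Nqo1 and 0 for Keap1. Of all 10892 other genes, of either sign, that fit called 82 for Keap1 and 120 for Nqo1. It called 2391 for Srxn1, 2397 for Prdx1, 2516 for Slc7a11 and 2610 for Txnrd1. For the remaining genes its count lay within the range over all alternatives, 2705 to 5881 for Gclm, 1333 to 4394 for Gclc and 948 to 3998 for Nfe2l2. Low counts of Keap1 and Nqo1 with the components, here and in the lists below, stand beside that low background. Of 12 glutathione genes, 4 to 7 were positive and 0 to 2 negative for each of the 7 targets, where 7.06% (Txnrd1) to 27.4% (Srxn1) of all genes were positive, and 0 were positive for Nfe2l2 and 1 for Keap1. With 5 components added, 0 of the 12 were positive for Nqo1, 2 for Nfe2l2 and 4 to 7 for the other targets. Of 11 further thioredoxin and peroxiredoxin genes, counts were mixed in sign, from 6 positive and 3 negative for Srxn1 and for Prdx1 to 0 positive and 2 negative for Nfe2l2. Prdx6 was among the 4 genes with the smallest p of that list for Gclm, Slc7a11, Nqo1, Srxn1, Gclc, Txnrd1 and Prdx1, always with a positive r.

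Cholesterol biosynthesis genes were mostly on the negative side. Of 20 such genes 19 were negatively associated with Nqo1 and 19 with Srxn1, 16 with Gclc, 14 with Txnrd1 and 12 with Gclm, but 3 with Prdx1 and 0 with Nfe2l2, where 7.71% (Txnrd1) to 28.6% (Srxn1) of all genes were negative for these enzymes. With Srxn1 mevalonate kinase, Mvk, stood at r = -0.557. With 5 components added, the negative counts were 15 for Srxn1, 14 for Gclm and 10 for Prdx1, but 4 for Gclc, 4 for Txnrd1 and 0 for Nqo1, while for Nfe2l2 17 were then positive. Over the alternatives, 948 to 3998 of all 10892 other genes, of either sign, were associated with Nfe2l2. Cell cycle genes were negative in 11 of 11 for Srxn1 and Slc7a11 and in 10 of 11 for Txnrd1, while 5 were positive and 0 negative for Prdx1, where 23.9% of all genes were positive. With the components the negative counts were 8 for Srxn1, 7 for Slc7a11 and 6 for Txnrd1, and Prdx1 had 0 positive and 6 negative.

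Markers of other cells moved with several of the genes, and their part in these results was not tested. Of the 9 neutrophil and precursor markers in the VST table, 7 each were positive for Keap1, Nqo1 and Slc7a11, while 7 were negative for Gclm, 5 for Gclc and 5 for Txnrd1, and 0 were called for Nfe2l2 and Srxn1. Of all genes, 24.6% were positive for Keap1, 19.6% for Nqo1 and 22.7% for Slc7a11. Negative were 17.7% of all genes for Gclm, 17.9% for Gclc and 7.71% for Txnrd1. The sum of all 11 such markers, with a median of 302 CPM in males and 386 CPM in females, had r = 0.407 with Nqo1, 0.281 with Slc7a11, -0.244 with Gclm and -0.279 with Txnrd1. With 5 components added, 0 of the 9 markers were called for Keap1, Nqo1 and Nfe2l2 and 1 was negative for Slc7a11, while 5 were negative for Prdx1, 5 for Txnrd1, 4 for Gclc, 4 for Srxn1 and 3 for Gclm. Sums of other marker lists moved with some genes too. Dendritic cell markers (median 27.1 CPM) had r = 0.460 with Slc7a11, 0.426 with Srxn1 (rho = 0.278) and -0.367 with Prdx1. B cell markers (median 2.28 CPM) had r = -0.484 with Prdx1. The summed level of the 9 macrophage markers, 11725 to 25210 CPM, had r = 0.483 with Gclm and 0.364 with Prdx1. Most of that sum was Lyz2, with a median of 9571 CPM beside 15356 CPM for the sum. Of the 9 single markers, 3 were positive and 1 negative for Gclm, where 17.5% of all genes were positive and 17.7% negative. For Prdx1, 2 were positive and 2 negative, where 23.9% of all genes were positive and 21.6% negative.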

How the data were processed

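Per the submitters' processing notes, the authors used FastQC, TopHat2 2.0.11, HTSeq 0.6.1, DESeq2 and the mouse build GRCm38; the role of each tool and the annotation release are not given in the sources used here. The deposited raw counts gave library totals, CPM and RPKM. The deposited log2 values, named VST (a transform that DESeq2 offers), cover genes with at least 5 counts in every library. Symbols came from GENCODE M21, which matched 21822 of 22721 identifiers, and the other 899 held 0.160% of counts. Per the labels' protocols, no strand-marking kit is named, so antisense reads cannot be told apart.

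The 9 genes and all gene lists were chosen with earlier results of these data known. Sex, plate and date were tested with edgeR 4.0.16 (quasi-likelihood, TMM, filterByExpr, 12060 genes). Partners were fitted with limma 3.58.1 on VST values with plate and sex as covariates, Benjamini-Hochberg over all genes; alternatives used limma voom and DESeq2 1.42.0. Named per gene were the 3 highest and 2 lowest partners by r and up to 4 genes per list by p, leaving out as partners genes with 20% or more shared 50-mers. The edgeR tests were tried on simulated counts. The limma fits were tried on VST residuals shuffled between libraries gene by gene. Such shuffling removes the correlation between genes that the real data hold. Date labels come in 2 formats and were used as labels without order. Mice are separate animals, but mice of a date may be alike, which permutations within plates do not allow for.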

Additional observations from a re-analysis of the deposited data

Results flagged for a closer look

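Among 153 sets of a gene and a plate or date with 4 to 10 libraries, 9 held a library far from the others of its set, where chance would give about 7.65 (1 in 20). Nqo1 was at 25.6 CPM in female 19, against 18.6 to 20.5 CPM in the other libraries of plate 1, and at 24.3 CPM in male 57 against 14.9 to 18.0 CPM in the others of its date; male 57 is 1 of the 6 libraries whose Y-linked counts went against the label. Srxn1 was at 378 CPM in male 37, against 226 to 257 CPM in the others of its date, and at 183 CPM in female 21, against 228 to 242 CPM on 28 October 2010. Male 37 also had the highest Txnrd1 of all libraries, 644 CPM. Nfe2l2 was at 229 CPM in male 31, against 259.8 to 281 CPM in the others of its date, and at 342 CPM in female 39, against 258 to 275 CPM on 25 November 2010. Gclc was at 172 CPM in female 15 and Prdx1 at 882 CPM in female 14, both of 16 June 2011, where the other libraries had 210.2 to 269 CPM and 507 to 686 CPM. Female 15 had the lowest Gclm of the series, 164 CPM. Keap1 was at 83.2 CPM in female 10, against 69.8 to 71.4 CPM on 26 May 2011.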

How the results depend on the processing

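Under each of 15 alternatives for sex (another scaling, filter, tool or batch term, 1 plate left out, or the 6 libraries against their label left out), 0 of the 9 genes passed; Srxn1, at 0.03 in the report, was at -0.0115 without plate 4. All genes past the threshold for sex numbered 605 and 230 (without plate 4) to 948 (lane within plate), and for sex by plate 5 and 1 under limma voom. The 7 genes that passed for plate passed under all 4 alternatives, and for date 7 to 9 passed. Pairs called numbered 15 to 21 over 14 alternatives. Of the 18 called pairs 10 kept sign and call under all of them, and of the 18 others 11 changed sign and 6 passed under at least 1. Adding 5 principal components lost Keap1 with Gclm, which turned to 0.0277, and with Prdx1, and Nqo1 with Slc7a11 and Srxn1. Leaving out 1 plate lost Nfe2l2 with Slc7a11 (lowest r 0.146), Keap1 with Gclm (-0.225), Nqo1 with Srxn1 (0.165), Srxn1 with Prdx1 (0.122) and Gclm with Slc7a11 (0.204), and Srxn1 with Gclm was lost with no plate removed (0.169). Genes associated with Keap1 numbered 5463 and 82 to 6688, with Nqo1 4580 and 120 to 5322, with Nfe2l2 2843 and 948 to 3998, with Gclc 4055 and 1333 to 4394, with Gclm 3842 and 2705 to 5881, with Txnrd1 1609 and 937 to 2610, with Slc7a11 5094 and 2516 to 5749, with Prdx1 4961 and 2397 to 5261, and with Srxn1 6100 and 2391 to 6459. Nqo1, with the fewest counts, has the least precise values. No paired analysis was possible because replicate numbers follow accession order only.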
